A study of Mus musculus with 12 samples.

Results

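The immediate early and MAPK feedback genes form a set of 35 mouse genes, named by symbol and matched to the Ensembl gene IDs of a TPM table of 21959 genes. All 35 were found. They fall into 8 AP-1 factors, 8 factors of the EGR and NR4A families with Srf and Myc, 3 mRNA decay factors, 6 MAPK phosphatases and Sprouty inhibitors, 4 Kruppel-like factors, and 6 survival and early response proteins. The labels give the cells as C8-D1A, a cloned line of mouse astrocytes (1 clone). The markers of 1 control library go against this label, and in the other 11 libraries astrocyte markers were only in part present, as described below. RNA was taken after 24 h and sequenced as 12 libraries in 4 groups of 3. Control cells were kept at 37 °C in an incubator with 5% CO2. The 15% CO2 group received that gas level, the lactic acid group 20 mM lactic acid, and the low NaHCO3 group medium with 0.2 g/L NaHCO3. The pH reached in each condition is not given in the sources used here. No source says whether replicate libraries were grown as separate cultures, and p-values then measure only the spread between these libraries, which may be technical.

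Immediate early genes are transcribed within minutes of a stimulus, from factors that are already present in the cell. ERK, p38 and JNK kinases phosphorylate such factors at CArG boxes (serum response factor with ETS partners) and at cAMP response elements (CREB and ATF proteins). Their products include transcription factors of the AP-1, EGR, NR4A and KLF families and proteins that shorten the life of other short-lived mRNAs. Dual specificity phosphatases and Sprouty proteins, made in the same wave, switch the kinases off again. A sample at 24 h lies well after the first peak of such a response. In astrocytes these genes are known to respond to growth factors, calcium signals and injury.

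One control library stood apart. Control 1 had rank correlations over genes of 0.859 to 0.884 with the other libraries, which correlated with each other at 0.958 to 0.980. It held markers of whole brain tissue: all 8 neuron, 6 oligodendrocyte, 6 microglia and 5 red blood cell markers, and 5 of 6 endothelial and mural markers, were highest in control 1. The summed neuron markers reached 2134 TPM there and 93.3 to 139.8 TPM in the other 11 libraries, where 5 of 8 were below 1 TPM. The astrocyte markers were only in part present: Aldh1l1, Slc1a3, Slc1a2, Aqp4, Gja1 and Aldoc were below 1 TPM in all 11 other libraries. Gfap was at 0.13 to 1.19 TPM there (64.3 TPM in control 1), while Vim, Sox9, S100b and Glul were present. The 6 muscle markers moved with the groups, at 93.2 to 101 TPM in sum in 15% CO2, 44.6 to 46.3 in controls 2 and 3, 37.6 to 52.4 in lactic acid and 13.7 to 15.6 in low NaHCO3, with none at 0. Mitochondrially encoded mRNAs took 10.4% to 10.9% of TPM in low NaHCO3 and 15.6% to 20.4% elsewhere, apart from 24.8% in 15% CO2 3 and 27.8% in lactic acid 3. In bulk RNA, fewer cells of a type and less RNA per cell cannot be told apart. The part of these differences in the results was not tested, and each result is given with and without control 1.

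Promoter sequence was at hand for 26 of the 35 members, as RefSeq windows on GRCm38.p6 from 250 bases before to 50 bases after a transcript start. The letters TGACG, a short form of the cAMP response element (CRE) to which CREB and ATF proteins bind, lay on either strand in 57.7% of those 26 members and in 23.0% of the 27025 genes with a window (20.8% of 32851 windows). The CArG box lay in 4 members (Dusp5, Egr2, Srf and Zfp36), or 15.4%, against 1.81% of genes and 1.63% of windows. The EGR site, GCGGGGGCG or GCGTGGGCG, lay in 7 members, or 26.9%, against 3.93% of genes and 3.47% of windows. The full CRE, TGACGTCA, which contains the short form on both strands, lay in Btg2 and Dusp1, and in 2.03% of genes and 1.79% of windows. No member window held the AP-1 site TGACTCA or TGAGTCA, found in 5.95% of genes and 5.20% of windows. These matches are letters in a window, not shown sites of binding.

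7 promoters are printed because their genes carry the main patterns: Fos, Nr4a1, Zfp36 and Dusp1 were highest in low NaHCO3 once control 1 was set aside, Nr4a2 and Zfp36l1 are close relatives that went the other way, and Btg2 was highest in 15% CO2. Each runs 5′ to 3′ over the 250 bases before the start (GRCm38.p6), with CArG boxes, CREs, their short form and EGR sites in capitals. The Zfp36l1 stretch holds none of these letters.
Fos (chr12:85473640-85473889, plus strand): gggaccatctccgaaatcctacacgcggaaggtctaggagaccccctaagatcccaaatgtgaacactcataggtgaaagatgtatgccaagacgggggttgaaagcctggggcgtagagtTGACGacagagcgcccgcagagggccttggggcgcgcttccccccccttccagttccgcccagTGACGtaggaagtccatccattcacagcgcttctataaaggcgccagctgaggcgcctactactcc
Nr4a1 (chr15:101266596-101266845, plus strand): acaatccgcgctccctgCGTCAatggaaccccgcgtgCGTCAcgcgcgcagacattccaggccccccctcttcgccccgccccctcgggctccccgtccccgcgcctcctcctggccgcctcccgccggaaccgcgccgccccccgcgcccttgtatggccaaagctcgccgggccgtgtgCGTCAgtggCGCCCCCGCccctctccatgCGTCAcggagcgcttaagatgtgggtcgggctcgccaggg
Nr4a2 (chr2:57124004-57124253, minus strand): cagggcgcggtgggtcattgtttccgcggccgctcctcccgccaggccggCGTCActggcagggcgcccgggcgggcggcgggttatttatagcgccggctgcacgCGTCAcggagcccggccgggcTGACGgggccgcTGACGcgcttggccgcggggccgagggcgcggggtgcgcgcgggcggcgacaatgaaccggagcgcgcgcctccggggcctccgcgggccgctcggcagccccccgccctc
Zfp36 (chr7:28379229-28379478, minus strand): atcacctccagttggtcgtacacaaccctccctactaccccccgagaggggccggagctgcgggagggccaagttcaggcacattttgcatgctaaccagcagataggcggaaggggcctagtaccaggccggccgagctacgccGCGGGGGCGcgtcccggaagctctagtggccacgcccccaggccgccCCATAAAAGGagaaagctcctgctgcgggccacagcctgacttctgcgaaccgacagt
Zfp36l1 (chr12:80113014-80113263, minus strand): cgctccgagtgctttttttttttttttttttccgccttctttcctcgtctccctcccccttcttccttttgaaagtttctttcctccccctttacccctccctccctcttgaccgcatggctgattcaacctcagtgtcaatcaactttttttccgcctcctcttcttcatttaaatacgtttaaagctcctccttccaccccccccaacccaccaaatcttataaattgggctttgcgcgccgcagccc
Btg2 (chr1:134079156-134079405, minus strand): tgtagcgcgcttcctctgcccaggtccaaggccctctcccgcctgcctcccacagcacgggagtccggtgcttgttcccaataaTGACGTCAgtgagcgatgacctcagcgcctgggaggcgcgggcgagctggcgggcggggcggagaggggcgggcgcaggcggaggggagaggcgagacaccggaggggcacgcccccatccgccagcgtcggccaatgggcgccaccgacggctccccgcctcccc
Dusp1 (chr17:26508473-26508722, minus strand): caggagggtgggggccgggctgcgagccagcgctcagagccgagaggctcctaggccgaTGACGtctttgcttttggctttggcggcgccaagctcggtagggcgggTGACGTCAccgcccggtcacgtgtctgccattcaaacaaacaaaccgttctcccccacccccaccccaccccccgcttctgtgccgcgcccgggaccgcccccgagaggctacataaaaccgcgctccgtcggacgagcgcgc

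Members rose most widely in low NaHCO3, in part in lactic acid, and least in 15% CO2. Without control 1, low NaHCO3 raised Fosb, Egr1, Gadd45b, Zfp36 and Egr2 the most. It lowered Jund, Zfp36l1 and Klf2 in both fits. Lactic acid raised Zfp36, Dusp1, Dusp6, Klf6, Myc and Phlda1 in both fits, and Egr1, Egr2, Fos and 7 others once control 1 was left out. In 15% CO2 no member passed with all libraries, and 6 rose once control 1 was left out, Btg2 and Nr4a2 the most. There 5.99% of all genes were higher, and none of these 6 calls held under every omission of a further library. Of these 6, Zfp36 and Srf had changes of similar size in both fits. The summed level of the 35 members was 1851 to 1920 TPM in the controls, 1937 to 2077 TPM in 15% CO2, 2355 to 2404 TPM in lactic acid and 3111 to 3269 TPM in low NaHCO3.

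Tests were made with limma on log2(TPM + 1) across all genes that reached 1 TPM in every library of a group, 11996 genes with all 12 libraries and 12023 without control 1. A call is an adjusted p under 0.05, with Benjamini-Hochberg adjustment over all those genes, and changes are log2 differences ± SE with 3 libraries per group, or 2 controls where control 1 is left out. Counts at an unadjusted p under 0.05 are given without the share of all genes at that cut, and no reading rests on them. Counts of calls with a further library left out are likewise given without the share of all genes called there. Of the members, 34 were tested and each of these had at least 1.25 TPM in every library. Nr4a3, an orphan nuclear receptor, was not tested: it stood at 20.9 TPM in control 1 and at 1.11 TPM or less in all others.

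Low NaHCO3 against control gave 23 called members with all 12 libraries, 20 higher (58.8% of 34, against 20.5% of all genes tested) and 3 lower (8.82%, against 35.8% of all genes). Without control 1 there were 26, 22 higher (64.7%, against 23.1%) and 4 lower (11.8%, against 41.5%). The fits shared 21 calls; Ier5 and Spry2 were lost, and Fos, Egr3, Nr4a1, Nr4a2 and Btg2 were gained. Of the 26, 23 kept their call whichever further library was left out. The exceptions were Dusp5 and Btg2, lost without control 2 or control 3, and Nr4a2, lost without control 2 (highest adjusted p = 0.0727, 0.0751 and 0.0994). The members' median change was 0.52 and that of all genes -0.18 without control 1. Under median-of-ratios scaling the median of all genes was 0.0028, and 4072 genes were called higher and 3881 lower, in place of 2780 and 4992. There 28 members were called, of which Jund, Zfp36l1, Klf2 and Nr4a2 were lower and the rest higher. Relative to the median of all genes, a change given for low NaHCO3 without control 1 is higher by 0.18.

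Lactic acid against control gave 6 called members with all 12 libraries, all higher (17.6%, against 2.73% of all genes; 1.68% of genes were lower). Without control 1 it gave 16, again all higher (47.1%, against 9.31%; 7.34% of genes were lower), among them the same 6. Leaving 1 of the other 11 libraries out of the 12-library fit gave 1 to 4 calls. For these omissions and those below, the share of all genes called is not given, so the swing is not shown to be particular to the members. Without control 1, a second omission left 5 to 18 calls, and Egr1, Egr2, Zfp36, Dusp1 and Nr4a2 passed under every such omission. Without control 2 as well, there were 5 calls, those same genes, and Dusp6, Klf6, Myc and Phlda1 were among those lost. Without control 3 as well, there were 7. The median change of the members was 0.32 without control 1 and 0.22 with it, and that of all genes -0.0018 and -0.033.

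15% CO2 against control gave 0 called members in the limma fit of 12 libraries, where 1.34% of all genes were called higher and 0.0667% lower. At an unadjusted p under 0.05 there were 6 members, a cut for which the share of all genes is not given. Without control 1, 7 were called. Fosl2, Egr1, Zfp36, Nr4a2, Btg2 and Srf were higher (17.6%, against 5.99% of all genes) and Dusp5 was lower (2.94%, against 1.63%). No call held under all 11 second omissions. Under median-of-ratios scaling Egr1, Zfp36 and Srf did not pass, and Dusp5 did not, here or in low NaHCO3, when mitochondrial and the 10 most abundant genes were left out. Without control 2 as well, none of the 7 passed, and their highest adjusted p over the 11 omissions ran from 0.0758 for Btg2 to 0.271 for Fosl2. The members' median change was 0.12 without control 1, and that of all genes was 0.032. The 3 comparisons share the control libraries. With 15% CO2 3 and lactic acid 3, the libraries of highest mitochondrial share, left out besides control 1, the 7, 16 and 26 calls were all kept, within totals of 10, 20 and 28.

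**Figure D1:**
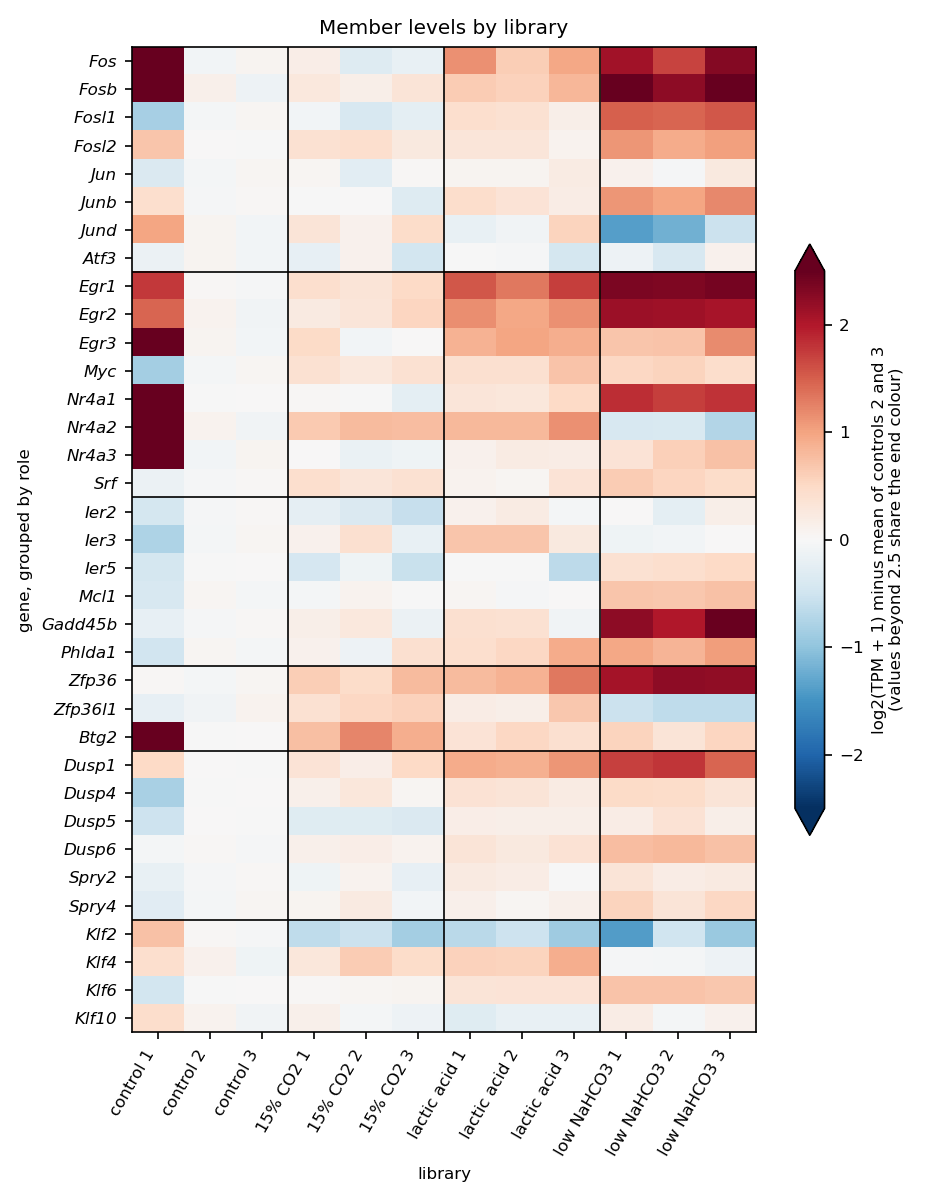
Level of each of the 35 members in each of the 12 libraries, as log2(TPM + 1) minus the mean of controls 2 and 3 (red higher, blue lower), with rows grouped by role. The low NaHCO3 columns are red for most rows and blue for Jund, Zfp36l1, Nr4a2 and Klf2, and control 1 differs from both other controls in most rows.

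Among the AP-1 factors, subunits that pair to bind DNA, low NaHCO3 raised 4 of 8 with all libraries (50.0%, against 20.5% of all genes) and 5 of 8 without control 1 (62.5%, against 23.1%). It lowered 1 of 8 in both fits (12.5%, against 35.8% and 41.5%). Fos is the founding FOS subunit. It stood at 34.7, 3.995 and 4.51 TPM in controls 1, 2 and 3, at 4.91, 3.19 and 3.58 TPM in 15% CO2, at 10.6, 7.01 and 9.22 TPM in lactic acid and at 21.3, 15.9 and 24.7 TPM in low NaHCO3. Control 1 was above every other library, while both other controls lay below every lactic acid and low NaHCO3 library. The change in low NaHCO3 was 1.10 ± 0.59 with all libraries (adjusted p = 0.129) and 2.03 ± 0.21 without control 1 (adjusted p = 8.11e-06). For lactic acid it was -0.017 ± 0.59 (adjusted p = 0.988) and 0.90 ± 0.21 (adjusted p = 0.0149), a call lost when control 2 or control 3 was left out too (highest adjusted p = 0.136).

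Fosb, a close relative of Fos, followed Fos at lower levels. Its values were 15.1, 1.82 and 1.38 TPM in the controls, 2.12, 1.87 and 2.24 TPM in 15% CO2, 3.001, 2.88 and 3.59 TPM in lactic acid and 14.3, 11.1 and 16.8 TPM in low NaHCO3. Control 1 lay within the low NaHCO3 range. Low NaHCO3 raised Fosb in both fits, by 1.64 ± 0.55 (adjusted p = 0.0258) and 2.52 ± 0.16 (adjusted p = 3.44e-07). In lactic acid it rose without control 1 only, by 0.68 ± 0.16 (adjusted p = 0.0179), a call lost without control 2 or control 3 (highest adjusted p = 0.148). Fosl1, which encodes FRA1, had the highest TPM of the FOS family in all libraries but control 1. It had 26.6, 46.4 and 49.5 TPM in the controls, 45.7, 36.2 and 40.5 TPM in 15% CO2, 64.6, 62.4 and 52.8 TPM in lactic acid and 137, 134 and 143 TPM in low NaHCO3. Low NaHCO3 overlapped no other group, and the change was 1.78 ± 0.19 with all libraries and 1.503 ± 0.11 without control 1 (adjusted p = 2.78e-05 and 6.49e-07). Fosl2, encoding FRA2, had 33.7 to 38.1 TPM in low NaHCO3 and 17.1 and 17.1 TPM in controls 2 and 3, a rise of 1.02 ± 0.095 (0.80 ± 0.17 with control 1). Its change of 0.35 ± 0.095 in 15% CO2 (adjusted p = 0.0466, and 0.12 ± 0.17 with control 1, adjusted p = 0.723) held in 3 of 11 second omissions.

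The JUN subunits did not move together. Jun itself passed no test with or without control 1, at 86.9, 108 and 116 TPM in the controls, 93.3 to 116 TPM in 15% CO2, 118 to 129.7 TPM in lactic acid and 111 to 132 TPM in low NaHCO3. Junb rose in low NaHCO3, where it had 86.6, 79.1 and 92.3 TPM against 53.6, 39.04 and 40.3 TPM in the controls. Its change was 0.95 ± 0.14 with all libraries and 1.09 ± 0.11 without control 1. Jund, often the JUN subunit of resting cells, fell. Its values were 20.6, 10.4 and 9.46 TPM in the controls, 12.7, 10.7 and 13.9 TPM in 15% CO2, 8.64, 9.25 and 15.1 TPM in lactic acid and 3.19, 3.75 and 6.56 TPM in low NaHCO3. Every low NaHCO3 library was below every other library. The change was -1.36 ± 0.31 (adjusted p = 0.00330) and -1.04 ± 0.26 without control 1 (adjusted p = 0.00449). Atf3, a stress-induced partner of JUN, had 12.2 to 18.8 TPM over the 12 libraries and, like Jun, passed no test.

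Egr1 and Egr2, zinc finger factors that ERK signalling raises through serum response factor, showed a graded order with control 1 aside. Egr1 stood at 132, 38.7 and 37.4 TPM in the controls, 51.1, 48.1 and 53.9 TPM in 15% CO2, 113, 96.4 and 129 TPM in lactic acid and 199, 197 and 203 TPM in low NaHCO3. With control 1 aside, the 4 groups did not overlap. Its change in low NaHCO3 was 1.77 ± 0.37 with all libraries (adjusted p = 0.00198) and 2.36 ± 0.10 without control 1 (adjusted p = 3.88e-08). In lactic acid it was 0.94 ± 0.37 (adjusted p = 0.155) and 1.53 ± 0.10 (adjusted p = 5.06e-05). In 15% CO2 it was -0.18 ± 0.37 (adjusted p = 0.826) and 0.41 ± 0.10 (adjusted p = 0.0358), lost when any of 6 further libraries was left out, up to an adjusted p of 0.218. Egr2 had 9.80, 3.22 and 2.68 TPM in the controls, 3.61, 3.84 and 4.73 TPM in 15% CO2, 7.78, 6.74 and 7.75 TPM in lactic acid and 16.3, 16.2 and 15.5 TPM in low NaHCO3. It rose by 2.11 ± 0.12 in low NaHCO3 and by 1.09 ± 0.12 in lactic acid without control 1, and by 1.62 ± 0.32 in low NaHCO3 with it. The lactic acid change with all libraries did not pass (0.61 ± 0.32, adjusted p = 0.266). In 15% CO2 Egr2 passed in neither fit, at 0.35 ± 0.12 without control 1 (adjusted p = 0.0891) and -0.13 ± 0.32 with it (adjusted p = 0.853).

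Egr3, of the same family, was far higher in control 1 than elsewhere. Its values were 83.8, 2.58 and 2.29 TPM in the controls, 3.79, 2.27 and 2.45 TPM in 15% CO2, 5.28, 5.83 and 5.41 TPM in lactic acid and 4.58, 4.60 and 6.78 TPM in low NaHCO3. Without control 1 the change was 0.92 ± 0.19 in lactic acid (adjusted p = 0.00959) and 0.86 ± 0.19 in low NaHCO3 (adjusted p = 0.00181). With all libraries both signs turned, at -0.62 ± 0.95 and -0.68 ± 0.95 (adjusted p = 0.708 and 0.556). The lactic acid call did not hold without control 2 or control 3 (highest adjusted p = 0.0802).

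The NR4A orphan nuclear receptors parted in low NaHCO3. Nr4a1 had 70.95, 11.6 and 11.7 TPM in the controls, 11.9, 11.6 and 9.68 TPM in 15% CO2, 14.6, 14.5 and 16.9 TPM in lactic acid and 44.4, 41.05 and 43.3 TPM in low NaHCO3. Both controls other than control 1 lay within the 15% CO2 range and below every lactic acid and low NaHCO3 library. Its change in low NaHCO3 was 0.96 ± 0.51 (adjusted p = 0.132) with all libraries and 1.80 ± 0.10 (adjusted p = 1.49e-07) without control 1. In lactic acid it was 0.36 ± 0.10 without control 1 (adjusted p = 0.0344, lost in 4 of 11 second omissions, with both other controls among them) and -0.47 ± 0.51 with it (adjusted p = 0.585). Nr4a2 had 22.9, 2.96 and 2.49 TPM in the controls, 4.84, 5.48 and 5.39 TPM in 15% CO2, 5.54, 5.49 and 7.15 TPM in lactic acid and 1.83, 1.85 and 1.25 TPM in low NaHCO3. Set beside controls 2 and 3 it was higher in every 15% CO2 and lactic acid library and lower in every low NaHCO3 library. These changes were 0.74 ± 0.15, 0.92 ± 0.15 and -0.501 ± 0.15 without control 1 (adjusted p = 0.0147, 0.00352 and 0.0117), and -0.15 ± 0.56, 0.023 ± 0.56 and -1.39 ± 0.56 with it, none of the latter past the threshold. The 15% CO2 call was lost without control 2 or control 3 (highest adjusted p = 0.128). Their promoters, printed above, both hold 4 copies of the short CRE, and that of Nr4a1 also an EGR site.

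Srf, the serum response factor that binds CArG boxes, and Myc, a driver of growth and the cell cycle, moved less. Srf had 44.8, 48.6 and 50.9 TPM in the controls, 67.3, 61.8 and 65.3 TPM in 15% CO2, 53.04, 51.7 and 63.5 TPM in lactic acid and 77.3, 72.9 and 68.99 TPM in low NaHCO3. All 15% CO2 and low NaHCO3 libraries lay above all controls. It rose in low NaHCO3 in both fits, by 0.59 ± 0.094 and 0.54 ± 0.092. In 15% CO2 the change was 0.42 ± 0.094 (adjusted p = 0.0563) and 0.37 ± 0.092 (adjusted p = 0.0343), lost without control 2, control 3, 15% CO2 1 or 15% CO2 3 (highest adjusted p = 0.271). Myc had 47.7, 83.97 and 90.2 TPM in the controls and 105 to 114, 116 to 144 and 119 to 128 TPM in 15% CO2, lactic acid and low NaHCO3, above every control in all 9 treated libraries. It rose in lactic acid and low NaHCO3 in both fits. The sizes without control 1 were 0.51 ± 0.10 and 0.504 ± 0.10, and those with it 0.80 ± 0.20 and 0.79 ± 0.20.

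**Figure D2:**
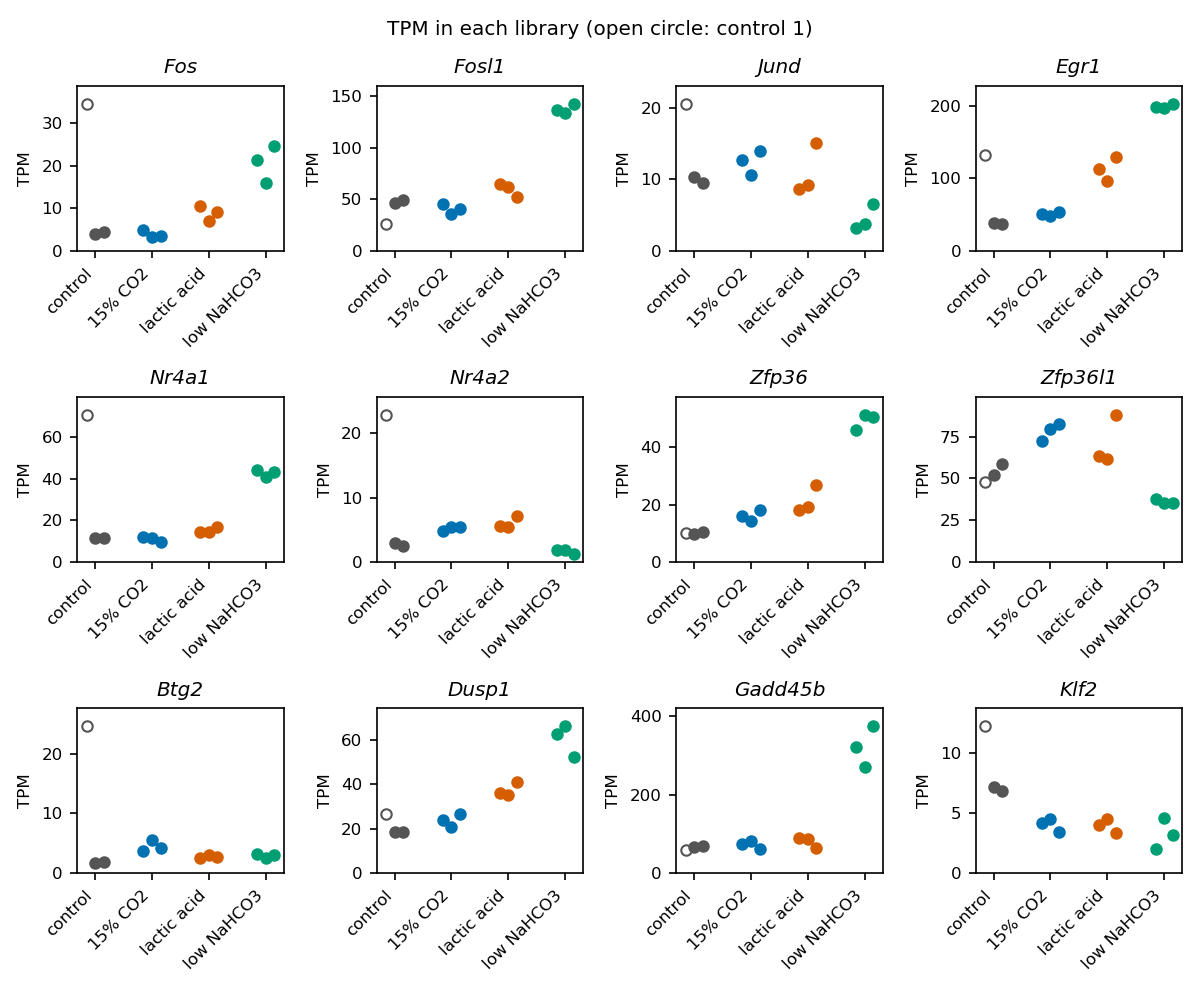
TPM of 12 members in each library, 1 point per library in 4 groups of 3, with control 1 as an open circle and axes from 0. With control 1 set aside, Egr1, Zfp36 and Dusp1 climb from control through 15% CO2 and lactic acid to low NaHCO3. The step of Dusp1 in 15% CO2 did not pass in either fit. Jund and Zfp36l1 are lowest in low NaHCO3, and control 1 lies far above controls 2 and 3 for Fos, Nr4a1, Nr4a2 and Btg2.

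The mRNA decay factors split between relatives. Zfp36, or tristetraprolin, binds AU-rich elements and speeds the decay of many early response mRNAs. It stood at 10.2, 9.76 and 10.4 TPM in the controls, 15.99, 14.2 and 18.2 TPM in 15% CO2, 18.2, 19.2 and 26.7 TPM in lactic acid and 46.01, 51.4 and 50.4 TPM in low NaHCO3. Control 1 was like the other controls here, and all controls lay below all treated libraries. The changes without control 1 were 0.62 ± 0.15 in 15% CO2, 0.996 ± 0.15 in lactic acid and 2.18 ± 0.15 in low NaHCO3 (adjusted p = 0.0304, 0.00257 and 5.37e-07). With all libraries they were 0.62 ± 0.14, 0.99 ± 0.14 and 2.18 ± 0.14 (adjusted p = 0.0576, 0.00844 and 1.08e-06). The 15% CO2 call was lost without control 2, control 3, 15% CO2 1 or 15% CO2 3 (highest adjusted p = 0.240).

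Zfp36l1, which binds the same kind of element, had 47.6, 51.8 and 58.8 TPM in the controls, 72.5, 79.3 and 82.6 TPM in 15% CO2, 63.1, 61.6 and 88.1 TPM in lactic acid and 37.5, 35.04 and 35.3 TPM in low NaHCO3. It was below every other library in low NaHCO3 and above every control in the remaining 6 treated libraries. Low NaHCO3 lowered it in both fits, by a change of -0.54 ± 0.13 and -0.61 ± 0.14. In 15% CO2 the change of 0.49 ± 0.14 just missed the threshold (adjusted p = 0.0505). Btg2, an antiproliferative protein that recruits the deadenylase complex, had 24.7, 1.75 and 1.80 TPM in the controls, 3.67, 5.47 and 4.22 TPM in 15% CO2, 2.52, 2.97 and 2.68 TPM in lactic acid and 3.10, 2.46 and 3.02 TPM in low NaHCO3. Among the libraries other than control 1, the 15% CO2 libraries were the highest and controls 2 and 3 the lowest. The change without control 1 was 0.96 ± 0.15 in 15% CO2 (adjusted p = 0.00480), the largest of any member there, and 0.47 ± 0.15 in low NaHCO3 (adjusted p = 0.0159). With all libraries the signs turned, at -0.11 ± 0.66 and -0.60 ± 0.66 (adjusted p = 0.948 and 0.458).

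All 6 phosphatases and Sprouty inhibitors passed in low NaHCO3 with all 12 libraries, each higher (against 20.5% of all genes). Without control 1, 5 of 6 were called higher (against 23.1% of all genes). Dusp1 encodes a nuclear phosphatase of p38, JNK and ERK. It had 26.4, 18.5 and 18.5 TPM in the controls, 23.8, 20.8 and 26.5 TPM in 15% CO2, 35.98, 34.9 and 41.1 TPM in lactic acid and 62.6, 66.3 and 52.3 TPM in low NaHCO3. Lactic acid lay above all controls and all 15% CO2 libraries, and low NaHCO3 above lactic acid. Dusp1 rose by 0.81 ± 0.15 and 0.97 ± 0.12 in lactic acid, with all libraries and without control 1 (adjusted p = 0.0193 and 0.00109). In low NaHCO3 these values were 1.48 ± 0.15 and 1.65 ± 0.12 (adjusted p = 1.73e-05 and 8.45e-07).

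The ERK phosphatases were more abundant and changed less. Dusp6, which acts on cytoplasmic ERK, had 96.9, 102 and 97.4 TPM in the controls, 109, 112 and 106 TPM in 15% CO2, 124, 118 and 129 TPM in lactic acid and 172, 174 and 166 TPM in low NaHCO3. Each of the last 3 groups lay above the one before it, and control 1 was like the other controls. Dusp6 rose in lactic acid by 0.31 ± 0.064 (0.32 ± 0.068 with control 1) and in low NaHCO3 by 0.77 ± 0.064 (0.78 ± 0.068 with control 1). Dusp4, a nuclear relative, ran from 136 TPM in control 1 and 236 and 238 TPM in controls 2 and 3 to 296 to 333 TPM in low NaHCO3, a rise of 0.42 ± 0.087 (0.69 ± 0.18 with control 1). Its change of 0.30 ± 0.087 in lactic acid (adjusted p = 0.0414, and 0.56 ± 0.18 with control 1, adjusted p = 0.102) held in 4 of 11 second omissions. Dusp5, which acts on nuclear ERK, had 89.3, 128 and 127 TPM in the controls, 103, 103 and 99.2 TPM in 15% CO2, 142, 141 and 142 TPM in lactic acid and 146, 165 and 141 TPM in low NaHCO3. It was the one member called lower in 15% CO2, by a change of -0.32 ± 0.071 without control 1 (adjusted p = 0.0232) and -0.15 ± 0.13 with it (adjusted p = 0.569). That call was lost without control 2, control 3, 15% CO2 1 or 15% CO2 3 (highest adjusted p = 0.207).

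Sprouty proteins block the path from receptors to Ras and Raf. Spry4 had 20.9, 24.6 and 26.4 TPM in the controls and 37.9, 32.2 and 36.7 TPM in low NaHCO3, with no overlap, and rose by 0.56 ± 0.11 and 0.46 ± 0.10 with and without control 1. Spry2 had 87.9, 98.6 and 102 TPM in the controls and 125, 113 and 117 TPM in low NaHCO3. Its change there was 0.30 ± 0.10 with all libraries (adjusted p = 0.0263) and 0.24 ± 0.10 without control 1, just short of the threshold (adjusted p = 0.0517).

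Kruppel-like factors, zinc finger proteins of growth and differentiation, followed no common direction. Klf6 had 80.3, 109.99 and 111 TPM in the controls, 113, 114 and 116 TPM in 15% CO2, 138, 141 and 140.2 TPM in lactic acid and 181, 182 and 178 TPM in low NaHCO3. The spread within each treatment was small, and it rose in lactic acid (0.34 ± 0.054) and low NaHCO3 (0.70 ± 0.054) without control 1, as with it (0.49 ± 0.11 and 0.86 ± 0.11). Klf2 had 12.2, 7.10 and 6.81 TPM in the controls, 4.12, 4.51 and 3.42 TPM in 15% CO2, 3.95, 4.52 and 3.30 TPM in lactic acid and 2.01, 4.60 and 3.18 TPM in low NaHCO3. All 9 treated libraries lay below all 3 controls. The fall passed in low NaHCO3 (-0.94 ± 0.22, adjusted p = 0.00284), and in lactic acid and 15% CO2 the changes of -0.70 ± 0.22 and -0.67 ± 0.22 did not (adjusted p = 0.0506 and 0.0837). With all libraries the 3 changes were -1.19 ± 0.25, -0.94 ± 0.25 and -0.91 ± 0.25. Klf4 was raised by lactic acid, at 12.5, 12.4 and 15.99 TPM against 11.1, 8.67 and 7.44 TPM in the controls, without control 1 only (0.68 ± 0.13, adjusted p = 0.00775, against 0.54 ± 0.15, adjusted p = 0.0696). Klf10 ran from 18.9 to 32.4 TPM and passed no test against control.

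Of the survival and early response proteins, Gadd45b moved the furthest. It encodes a stress sensor that binds a kinase upstream of p38 and JNK. Its values were 57.8, 65.6 and 68.7 TPM in the controls, 74.2, 81.1 and 60.7 TPM in 15% CO2, 89.2, 87.2 and 63.5 TPM in lactic acid and 321, 270.2 and 377 TPM in low NaHCO3. The first 3 groups overlapped and low NaHCO3 stood apart from all of them. The rise was 2.31 ± 0.16 with all libraries and 2.23 ± 0.17 without control 1 (adjusted p = 1.84e-06 and 1.20e-06). Mcl1, an antiapoptotic BCL2 relative, also rose in low NaHCO3. It had 182, 248 and 233 TPM in the controls and 388, 383 and 401 TPM in low NaHCO3, a rise of 0.83 ± 0.11 and 0.70 ± 0.067. Both Gadd45b and Mcl1 missed the threshold in lactic acid and in 15% CO2.

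Phlda1 and Ier3 were the members of this role that rose in lactic acid. Phlda1, a pleckstrin homology protein of apoptosis control, had 49.7, 72.4 and 66.97 TPM in the controls, 93.7, 101 and 133 TPM in lactic acid and 136, 126 and 146 TPM in low NaHCO3. Its change in lactic acid was 0.78 ± 0.18 with all libraries and 0.62 ± 0.16 without control 1 (adjusted p = 0.0356 and 0.0247). Ier3 had 81.7, 134 and 145 TPM in the controls, 151, 184 and 123 TPM in 15% CO2, 225, 225 and 165 TPM in lactic acid and 130.1, 133 and 140.4 TPM in low NaHCO3. Its change in lactic acid was 0.79 ± 0.22 (adjusted p = 0.0626) and 0.54 ± 0.16 (adjusted p = 0.0464), a call that held in 3 of 11 second omissions. Ier5 had 70.5 to 96.01 TPM in the controls and 125 to 135 TPM in low NaHCO3, a change that passed with all libraries (0.58 ± 0.19, adjusted p = 0.0214) and missed without control 1 (0.43 ± 0.18, adjusted p = 0.0535). Ier2 had 18.3 to 32.4 TPM over the 12 libraries and passed no test against control.

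**Figure D3:**
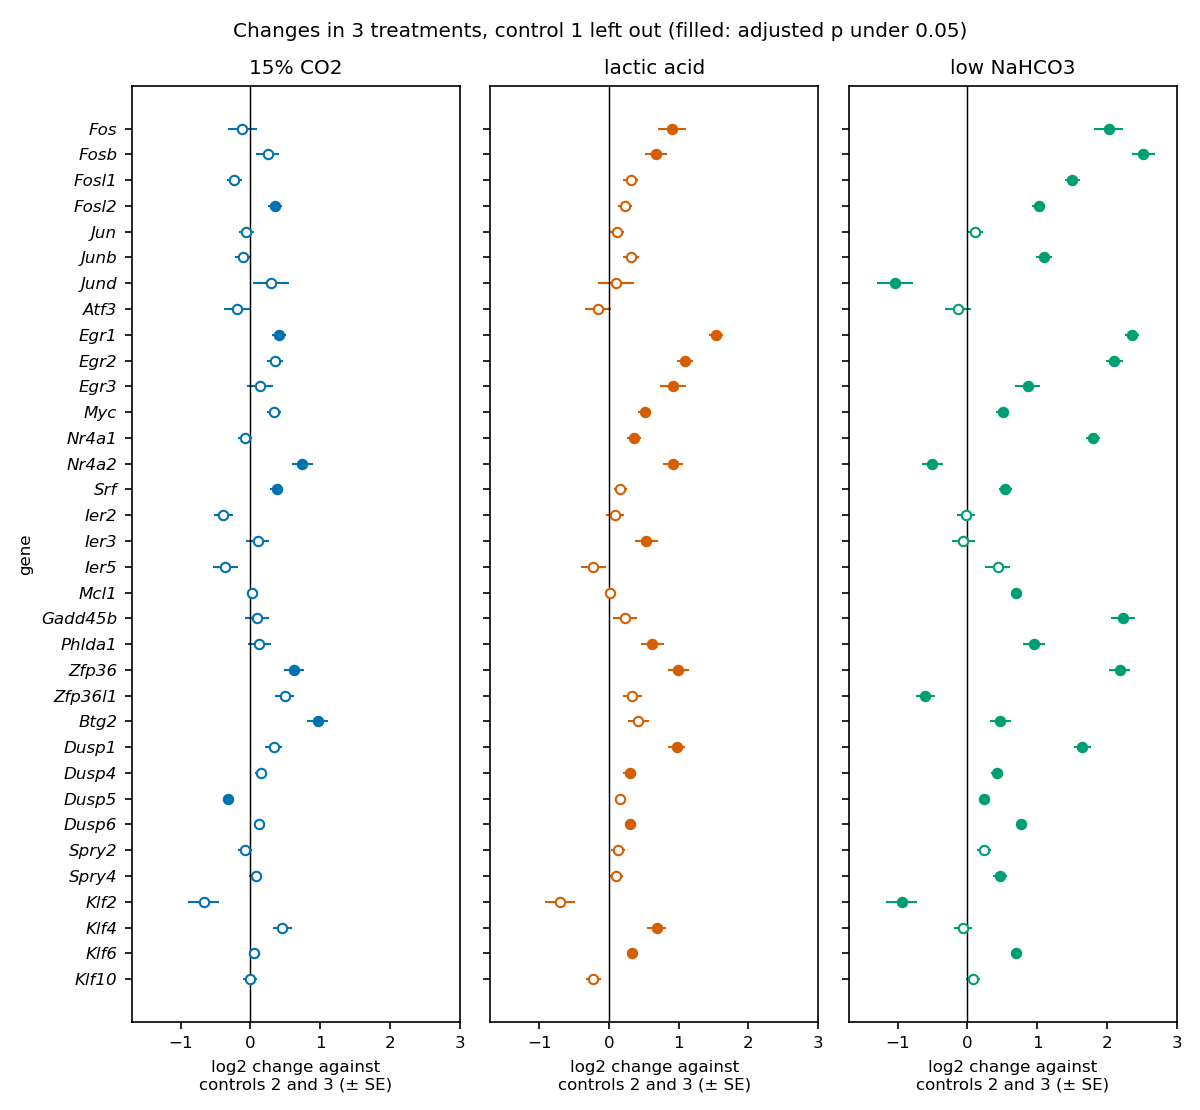
Change of each of the 34 tested members on the log2(TPM + 1) scale (horizontal axis, ± SE) in 15% CO2, lactic acid and low NaHCO3 against controls 2 and 3, with control 1 left out. Filled points passed an adjusted p under 0.05, which were 7 in 15% CO2, 16 in lactic acid and 26 in low NaHCO3.

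The treatments were also compared with each other, which needs no control library in the difference itself. Low NaHCO3 was above 15% CO2 for most members, with Fosb, Gadd45b, Fos and Egr1 furthest apart, and above lactic acid for about as many. Against lactic acid, 15% CO2 was lower in Egr1, Egr2, Dusp1 and Dusp5. The size of each such difference is the same in both fits, while its SE also takes in the spread of the controls. For Egr1 in 15% CO2 against lactic acid, the difference was -1.12 ± 0.37 with control 1 (adjusted p = 0.360) and -1.12 ± 0.092 without it (adjusted p = 2.68e-04).

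In 15% CO2 against lactic acid, 0 of 34 members passed the limma test with all libraries (0.333% of all genes did). At an unadjusted p under 0.05 there were 12 members, a cut for which the share of all genes is not given. Without control 1, 12 passed, 1 higher in 15% CO2 (2.94%, against 3.09% of all genes) and 11 lower (32.4%, against 1.71%). The 11 were Fos, Fosl1, Junb, Egr1, Egr2, Egr3, Ier2, Dusp1, Dusp5, Klf6 and Nr4a1, and the higher one was Btg2. Egr1, Egr2, Dusp1 and Dusp5 kept their call under every second omission, and the total ran from 5 to 14. Dusp5 differed by -0.47 ± 0.064 (adjusted p = 0.00416), Dusp1 by -0.64 ± 0.11 (adjusted p = 0.00988) and Egr2 by -0.74 ± 0.11 (adjusted p = 0.00520). With 15% CO2 3 and lactic acid 3 also left out, Egr3, Nr4a1 and Btg2 were lost from the 12.

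In 15% CO2 against low NaHCO3, 22 members passed with all libraries (52.7% of all genes did). Without control 1, 27 passed, 22 lower in 15% CO2 (64.7%, against 24.2% of all genes) and 5 higher (14.7%, against 45.8%). The 5 were Jund, Zfp36l1, Klf4, Nr4a2 and Btg2. Gadd45b differed by -2.15 ± 0.15 and Fosb by -2.28 ± 0.14 (adjusted p = 4.85e-07 and 2.23e-07). In lactic acid against low NaHCO3, 19 passed with all libraries (50.0% of all genes did) and 23 without control 1. Of these 23, 18 were lower in lactic acid (52.9%, against 24.8% of all genes) and 5 higher (14.7%, against 43.3%). Jund, Zfp36l1, Klf4, Nr4a2 and Ier3 were the higher ones. Egr1 differed by -0.83 ± 0.092 (adjusted p = 1.34e-05), and Myc, at 0.0086 ± 0.086, did not pass (adjusted p = 0.935).

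An F test for any difference among the 4 groups called 26 of 34 members with all libraries (55.2% of all genes) and 32 without control 1 (75.4% of all genes). Jun and Atf3 were the 2 that did not pass without control 1 (adjusted p = 0.280 and 0.790).

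Control 1 was the highest of the 12 libraries for 9 members (Fos, Jund, Egr3, Klf2, Klf10, Nr4a1, Nr4a2, Nr4a3 and Btg2), the lowest for 13, and between the others for 13. The lowest included Fosl1, Myc, Dusp4, Dusp5, Klf6 and Mcl1. Leaving it out turned the sign of 9 members in 15% CO2, 3 of which then passed (Egr1, Nr4a2 and Btg2). It turned 6 in lactic acid, 4 of which then passed (Fos, Fosb, Egr3 and Nr4a1), and 5 in low NaHCO3, 2 of which then passed (Egr3 and Btg2). The neuron markers Arc and Npas4, themselves immediate early genes, stood at 75.0 and 22.2 TPM in control 1 and at 4.27 and 6.55 TPM or less elsewhere. The part of the tissue markers in these sign changes was not tested. The same counts were not made over all genes, so they are not shown to be particular to the members.

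**Figure D4:**
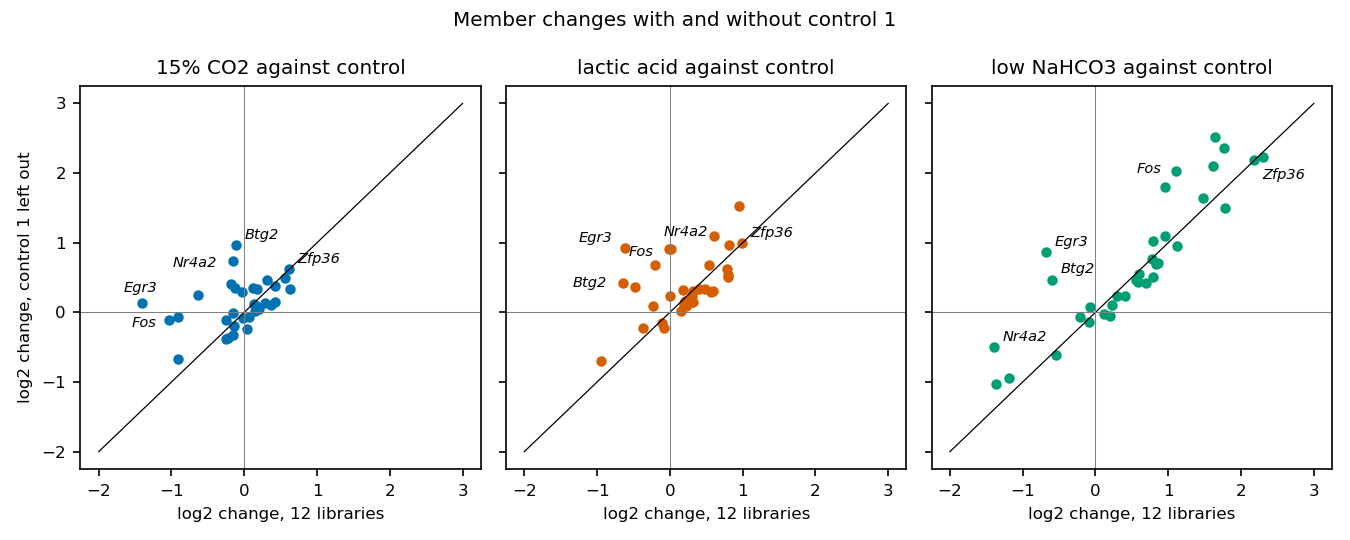
Each point is 1 of the 34 tested members, with its log2 change in the fit of 12 libraries on the horizontal axis and in the fit without control 1 on the vertical axis, for each treatment against control. Of the points named in the panels, Fos, Egr3, Btg2 and Nr4a2 lie far above the diagonal and Zfp36 lies on it. Fosb and Nr4a1, not named there, also lie far above it. All 6 of those above it had far higher levels in control 1 than in controls 2 and 3.

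Around the members, 129 other genes in 6 lists of the same signalling were counted. Of the other immediate early genes, 21 of 33 tested were higher in low NaHCO3 without control 1 (63.6%, against 23.1% of all genes) and 9 lower (27.3%, against 41.5%). With all libraries 18 were higher (54.5%, against 20.5%) and 5 lower (15.2%, against 35.8%). Ccn1, a matricellular protein and a YAP and SRF target, stood at 131, 219.5 and 239 TPM in the controls and 1618 ± 63.8 TPM (SD, n = 3) in low NaHCO3, a change of 2.81 ± 0.073 without control 1 and 3.08 ± 0.18 with it. Per1, a clock gene, had 45.2, 11.1 and 11.95 TPM in the controls and 117 ± 21.8 TPM (SD, n = 3) in low NaHCO3, a change of 3.22 ± 0.14 and 2.59 ± 0.40. Maff, a small MAF factor, rose by 1.39 ± 0.21 without control 1, and Id2, an inhibitor of helix-loop-helix factors, fell by 1.80 ± 0.083 on the log2 scale. In lactic acid 12 were higher (36.4%, against 9.31% of all genes) and 1 lower (3.03%, against 7.34%) without control 1. With all libraries 2 were higher and 0 lower there (against 2.73% and 1.68% of all genes). Ccn1 and Klf5 passed there in both fits, at 1.13 ± 0.073 and 0.42 ± 0.10 without control 1. In 15% CO2, 6 were higher (18.2%, against 5.99%) and 1 lower (3.03%, against 1.63%) without control 1. With all libraries 0 of 33 passed the limma test there (1.34% of all genes were higher and 0.0667% lower). At an unadjusted p under 0.05 there were 7, a cut for which the share of all genes is not given.

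Of the other MAPK phosphatases and ERK feedback or output genes, 6 of 18 were higher in low NaHCO3 without control 1 (33.3%, against 23.1% of all genes) and 10 lower (55.6%, against 41.5%). With all libraries 5 were higher and 8 lower (27.8% and 44.4%, against 20.5% and 35.8%). Epha2, a receptor raised by ERK signalling, had 34.96, 69.3 and 67.4 TPM in the controls and 157 ± 8.62 TPM in low NaHCO3. Dusp3, a small dual specificity phosphatase, had 81.9, 42.4 and 47.3 TPM in the controls and 19.9 ± 1.71 TPM in low NaHCO3. Both passed in both fits, Epha2 higher and Dusp3 lower. Spry1, of the Sprouty family, fell there by 0.86 ± 0.13 on the log2 scale and Dusp14 by 0.84 ± 0.10, while Spry4 rose. Lactic acid raised 6 of 18 without control 1 (33.3%, against 9.31% of all genes). With all libraries it raised 1 of 18, Spred3 (against 2.73% of all genes), which passed in both fits (0.51 ± 0.11 without control 1). Lower genes of this list in lactic acid are not given here. In 15% CO2, 2 were higher (11.1%, against 5.99%) and 1 lower (5.56%, against 1.63%) without control 1. With all libraries 0 of 18 passed the limma test there (1.34% of all genes were higher and 0.0667% lower). At an unadjusted p under 0.05 there were 5, a cut for which the share of all genes is not given.

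Genes of the Ras-ERK, p38 and JNK cascades were lower more often than higher in low NaHCO3, 13 against 7 of 32 tested without control 1 (13 against 4 with all libraries). Without control 1 these are 40.6% and 21.9%, near the 41.5% and 23.1% of all genes. With all libraries, 35.8% of all genes were lower and 20.5% higher. The RSK kinase genes Rps6ka1 and Rps6ka2 fell by 1.71 ± 0.12 and 1.55 ± 0.10 on the log2 scale, as did the scaffold gene Ksr1 by 1.05 ± 0.12. Map2k3, a kinase of p38, rose by 1.17 ± 0.094. In lactic acid 6 were higher (18.8%, against 9.31%) and 3 lower (9.38%, against 7.34%) without control 1. With all libraries 2 were higher and 1 lower there (against 2.73% and 1.68% of all genes). In 15% CO2, 0 of 32 passed in either limma fit. Of all genes, 5.99% were higher and 1.63% lower without control 1, and 1.34% and 0.0667% with it. At an unadjusted p under 0.05 there were 7 without control 1 and 4 with it, a cut for which the share of all genes is not given.

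Growth factor ligands and receptors gave 5 of 11 higher (45.5%, against 23.1% of all genes) and 3 lower (27.3%, against 41.5%) in low NaHCO3 without control 1. With all libraries 4 were higher (36.4%, against 20.5%) and 3 lower (27.3%, against 35.8%). Hbegf, a ligand of the EGF receptor, had 36.1, 58.8 and 56.96 TPM in the controls and 149 ± 2.49 TPM in low NaHCO3. Areg, another such ligand, had 13.3, 20.1 and 21.3 TPM in the controls and 48.04 ± 8.79 TPM in low NaHCO3. Both rose in both fits, by 1.35 ± 0.10 and 1.16 ± 0.15 without control 1. Fgfr1, a receptor of FGFs, rose in all 3 treatments in both fits, by 0.36 ± 0.063 in 15% CO2, 0.36 ± 0.063 in lactic acid and 0.80 ± 0.063 in low NaHCO3 without control 1. Erbb3, a receptor for neuregulins, fell by 2.67 ± 0.10 on the log2 scale in low NaHCO3. Pdgfrb, a receptor for PDGF, rose by 0.63 ± 0.12 in 15% CO2 and by 0.44 ± 0.12 in lactic acid, and was among the 3 lower genes in low NaHCO3.

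Partners of serum response factor, CREB and MEF2 factors were more often lower in low NaHCO3, 7 of 16 against 2 higher without control 1 (8 against 2 with all libraries). The 43.8% lower and 12.5% higher without control 1 stand beside 41.5% and 23.1% of all genes. With all libraries, 35.8% of all genes were lower and 20.5% higher. Elk3, an ETS partner of serum response factor, fell by 1.43 ± 0.077 on the log2 scale, Crem by 0.91 ± 0.17 and Mrtfb by 0.66 ± 0.11. Crtc2, a CREB coactivator, rose by 0.62 ± 0.14. Of the cytoskeletal targets of serum response factor and MRTF, 3 of 8 rose in both fits (37.5%, against 20.5% and 23.1% of all genes). They were Acta2, Vcl and Actg1. Actb and Tpm1 fell without control 1 only, where 41.5% of all genes were lower. Acta2, smooth muscle actin, had 342, 669 and 643 TPM in the controls and 1114 ± 50.5 TPM in low NaHCO3, a rise of 0.76 ± 0.10. The summed muscle markers were lowest in low NaHCO3, as given above. In 15% CO2 and lactic acid at most 1 gene of either list passed in each direction, of 16 and 8 tested. Without control 1, 5.99% of all genes were higher and 1.63% lower in 15% CO2, and 9.31% and 7.34% in lactic acid. With all libraries these shares were 1.34% and 0.0667%, and 2.73% and 1.68%. With so few genes tested, these counts set neither list apart from all genes.

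**Figure D5:**
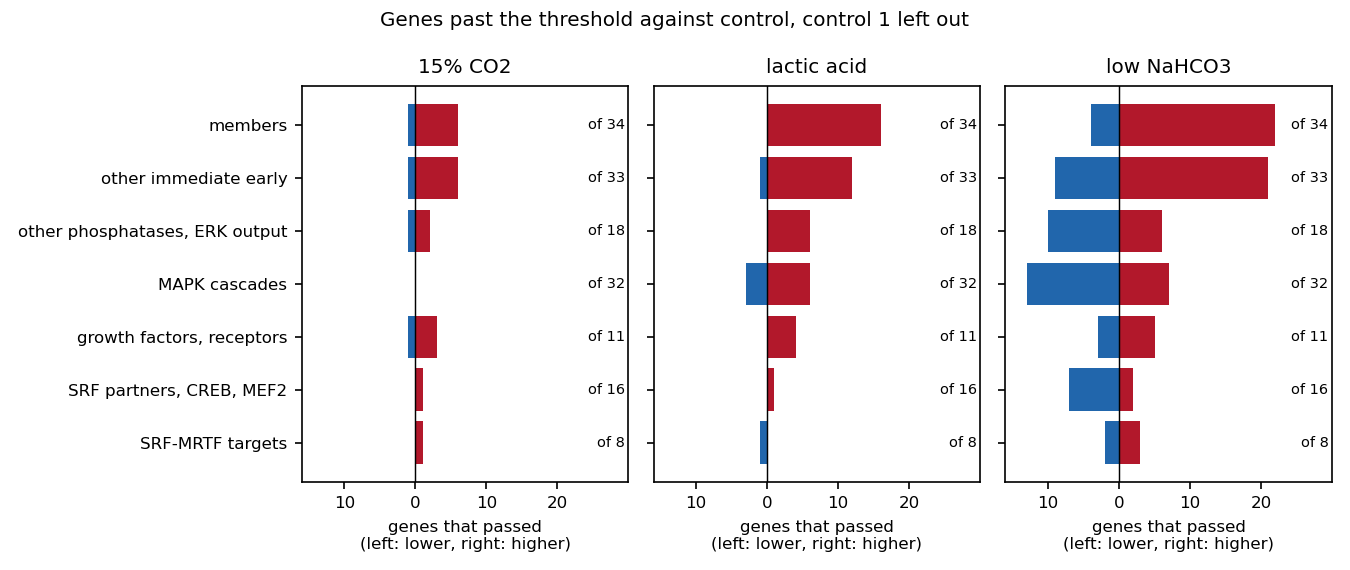
Number of genes past an adjusted p under 0.05 against controls 2 and 3 in each list (bars to the right higher, to the left lower, with the number tested beside them), for the members and the 6 other lists in each treatment. The members lean to the right in all 3 panels, while the cascade and other phosphatase lists lean to the left in low NaHCO3, as do all genes (41.5% lower and 23.1% higher).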

How the data were processed

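Total RNA of 12 libraries was measured as TPM. TPM (transcript abundances per gene length and library total) are the values the authors deposited, 1 column per library, and each column sums to 1000000. The tools and build named in the submitters' processing notes are fastp 0.22.0 (a trimmer), HISAT2 2.1.0 (an aligner) and GRCm39. Which program counted reads, on which annotation and with which strand setting, is not given in the sources used here. TPM keep no depth, so the depth is unknown and no counting intervals are given. A group with more RNA in a few genes lowers the TPM of all others, which is why other scalings were tried.

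Groups follow the treatment labels. Descriptions of replicates 2 and 3 give the gas as CO3 and CO4 and rising reagent numbers, which were read as copying errors. Symbols were matched by Ensembl ID to an older annotation (21851 of 21959 IDs, and all 35 members), so no GRCm39 coordinates are given. Members, lists and comparisons were chosen with earlier results of these data known. All members are named. Of each other list, up to 4 genes with the largest called change in the fit of 12 libraries are named, or the 2 most abundant where none passed.

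The main model was limma 3.58.1 (R 4.3.3), fitted to log2(TPM + 1) as group means, with a moderated two-sided test and a mean-variance trend. Genes with at least 1 TPM in every library of a group were tested. The scripts were tested on simulated data. Alternatives were a pseudocount of 0.1, no filter and a filter at 5 TPM, 2 other scalings, fits of the compared groups alone, the replicate number as a block, and each library left out, with and without control 1. Of those without control 1, the pseudocount, the block, the scaling without mitochondrial genes and the omission of 15% CO2 3 and lactic acid 3 were chosen after seeing the data. Promoters come from RefSeq (GRCm38.p6).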

Additional observations from a re-analysis of the deposited data

How the results depend on the processing

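Calls of members against control in low NaHCO3, and those of low NaHCO3 against both other treatments, stayed within 1.5 times the count of the 12-library fit under every alternative run. In lactic acid the 6 calls became 3 with no filter on low values and 0 in a fit of control and lactic acid alone, and 15% CO2 against lactic acid gave 5 in a fit of those groups alone in place of 0. With single libraries left out, with or without control 1, calls ran from 0 to 11 in 15% CO2, from 1 to 18 in lactic acid and from 0 to 14 in 15% CO2 against lactic acid. Without control 1, calls in 15% CO2, in lactic acid, and in 15% CO2 against lactic acid were 4, 18 and 14 under median-of-ratios scaling, 7, 16 and 10 with a pseudocount of 0.1, 8, 22 and 13 without mitochondrial and the 10 most abundant genes, and 10, 20 and 12 without 15% CO2 3 and lactic acid 3. Where a lone control is left, it is assumed to vary like the other groups. Depth could not be assessed from TPM. Counts of members in this section are given without the share of all genes called under the same alternative.

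Of the pairs of libraries with the same replicate number, 3 of 18 deviated together with a correlation over 0.1. These pairs ran from -0.15 to 0.49, and pairs with other numbers from -0.48 to 0.39. The highest was 15% CO2 3 with lactic acid 3, the libraries of highest mitochondrial share. Of the 12 libraries, 3 correlated best with their own number. With 3 libraries per group, this check cannot settle whether the numbers pair the libraries. With the replicate number as a block, calls were 0 in 15% CO2, 4 in lactic acid, 23 in low NaHCO3, 0 in 15% CO2 against lactic acid, 22 in 15% CO2 against low NaHCO3, 19 in lactic acid against low NaHCO3 and 26 in the F test. Without control 1 the block gave 7, 16, 27, 11, 28, 24 and 31.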
